A study of Mus musculus with 4 samples.

Results

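The genes of the cytosolic ribosomal proteins were followed across the 4 facial processes of the mouse embryo. They were taken by name: protein-coding genes whose symbol begins with Rpl or Rps and a number, together with Rplp0, Rplp1, Rplp2 and Rpsa, leaving out the Rps6k kinases and genes named as pseudogenes. The rule found 86 of 43346 gene entries and used no measured value. Of these, 46 encode proteins of the large subunit and 31 proteins of the small subunit. A further 8 are paralogs, genes whose symbol adds l, l1 or rt to that of a parent gene: Rpl3l, Rpl7l1, Rpl10l, Rpl22l1, Rpl36al, Rpl39l, Rps27l and Rps27rt. The remaining 1, Rps19bp1, is named for a protein that binds a ribosomal protein and is not itself a part of the ribosome. Fau and Rack1 encode ribosomal components too, but their names fall outside the rule and they are given separately below.

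RNA was measured in whole tissue of mixed cells from 4 outgrowths of the face at stage e11.5, with 1 library for each. These were the lateral and the medial nasal process, which build the nose, and the maxillary and the mandibular process of the first pharyngeal arch, which build the jaws. The embryos were wild type, and no group carried a treatment or mutation. Values of 4 libraries are always listed in this order. The strain and the number of embryos behind a library are not given in the sources read, and 1 field of the medial nasal sample carries the abbreviation of the lateral nasal process, so its title was used. Since each process has 1 library, differences could not be set against replicate spread, no p-value is given, and the 95% intervals below cover counting error only.

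Ribosomes are built in the nucleolus from ribosomal RNA and ribosomal proteins. Each core protein is needed in about equal numbers, and many of their messenger RNAs begin with a run of pyrimidines, through which translation of the whole class is regulated together. Loss of a single ribosomal protein gene copy can cause Diamond-Blackfan anaemia, a failure of red cell production that is often joined by cleft palate and other facial defects, and the facial skeleton's neural crest precursors are known to be sensitive to reduced ribosome production.

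The library totals were 16163874, 13216161, 15385124 and 13680302 counts. The factors that adjust these totals lay between 0.985 and 1.02. Levels within a gene are given as CPM, counts scaled to an adjusted total of 1000000, and levels between genes as TPM, which also corrects for transcript length. As a check of the labels, Hand2, a transcription factor of the lower jaw, reached 103 CPM in the mandibular library, and the other 3 libraries held at most 1.32 CPM. Pax7, a transcription factor of the nasal neural crest, reached 113 CPM in the lateral nasal library, against 21.1 CPM in its medial neighbour.

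The ribosomal protein genes took 3.78% of all counts in the lateral nasal library (95% exact binomial interval 3.77 to 3.79). Their share was 3.79% in the maxillary library (3.78 to 3.80), 3.25% in the medial nasal library (3.24 to 3.26) and 3.22% in the mandibular library (3.21 to 3.23). Their summed TPM was 58420 in the lateral nasal, 56419 in the maxillary, 49665 in the mandibular and 48611 in the medial nasal process. The lateral nasal and maxillary processes were thus the high pair and the medial nasal and mandibular processes the low pair, called the lateral and the midline pair from here on.

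A mean of at least 1 CPM was reached by 83 of the 86 genes. The 3 others are paralogs: Rpl3l, known from muscle, and Rpl10l, known from testis, had 0 counts in every library, and Rpl39l, also known from testis, had 2, 0, 3 and 2 counts. A count of 0 allows a level of up to 0.185 to 0.223 CPM, depending on the library. RSEM's posterior mean, a second estimate of the same count, differed from the expected count by less than 10% for every detected gene of the rule, which does not show how surely reads were divided between a gene and its copies.

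**Figure D1:**
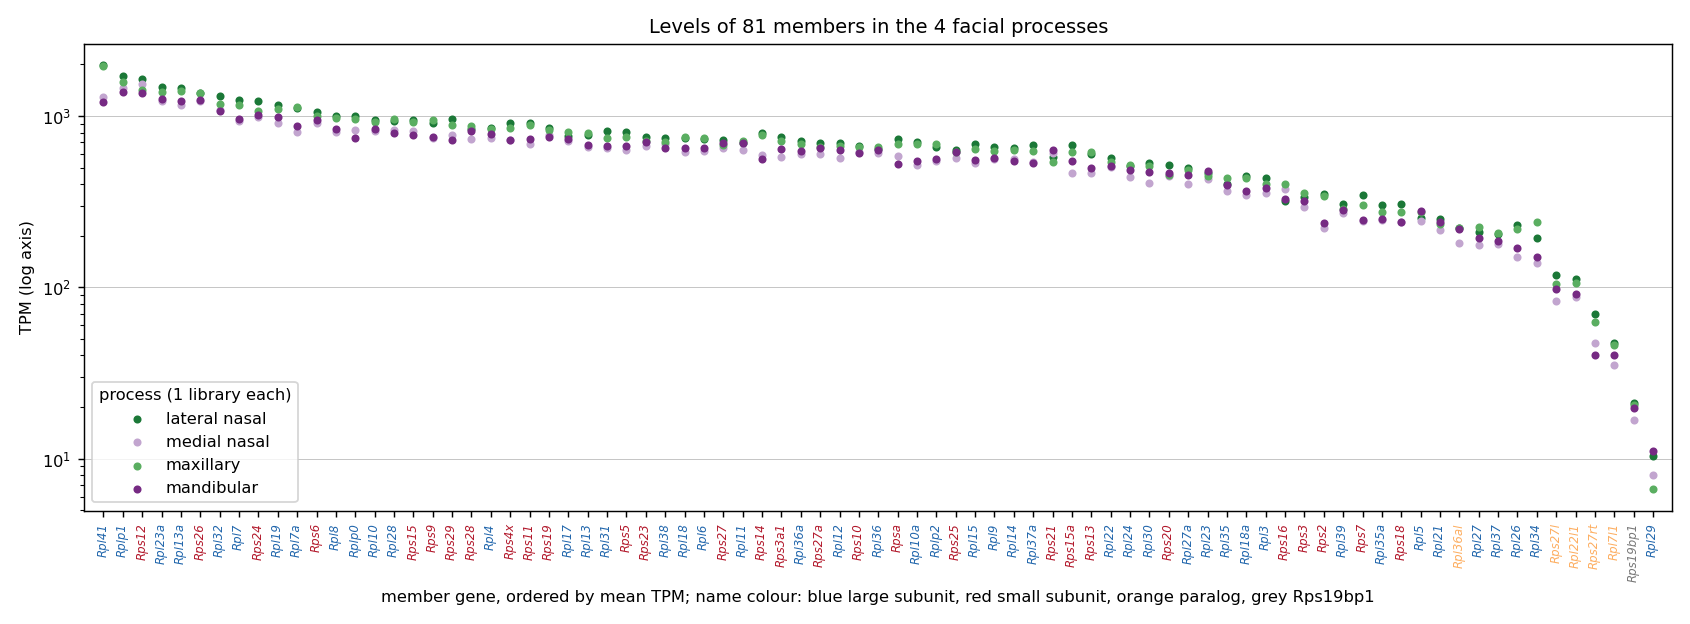
Deposited TPM (log axis) of 81 of the 83 genes that reached a mean of 1 CPM, ordered by mean level, with 1 point for each of the 4 libraries. Most core genes lie between 100 and 1000 TPM, the paralogs Rps27l, Rpl22l1, Rps27rt and Rpl7l1 fall below them, and Rpl29 stands last at 6.62 to 11.07 TPM.

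Core genes differed far more from each other than 1 gene differed among processes. Across the 77 core genes the median of the mean level was 654 TPM, 65 lay between 100 and 1000 TPM, 11 above and 1 below. The highest was Rpl41, which encodes the smallest ribosomal protein, at 1978, 1299, 1947 and 1204 TPM. Rplp1, a protein of the stalk that recruits elongation factors, followed at 1707, 1463, 1568 and 1380 TPM. Rps12 stood at 1645, 1543, 1413 and 1363 TPM, and so was higher in both nasal libraries than in both libraries of the first arch. Rpl23a, at the mouth of the exit tunnel, Rpl13a and Rps26, which contacts messenger RNA, completed the upper 6, each with both lateral libraries above both midline libraries. Rps26, for example, stood at 1367, 1219, 1354 and 1244 TPM.

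At the lower end stood Rpl29, a large subunit protein, at 10.32, 8.01, 6.62 and 11.07 TPM. It was followed by Rps19bp1 at 16.7 to 21.1 TPM and by 4 paralogs, with Rpl7l1 at 35.3 to 47.5 TPM and Rps27rt at 40.2 to 69.9 TPM. The low value of Rpl29 is set beside the counts of its copies below.

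Against the mean of the other 3 processes, 76 of the 83 genes were higher in the lateral nasal process, where 52.9% of all 15200 genes with a mean of at least 1 CPM were. In the maxillary process 79 of 83 were higher, beside 50.8% of all genes. In the medial nasal process 3 of 83 were higher, namely Rps12, Rps16 and Rps21, beside 47.7% of all genes. In the mandibular process 11 of 83 were higher, beside 49.7%. The 4 median differences were 0.13, -0.19, 0.17 and -0.10 on the log2 scale of CPM + 0.5, while the median over all genes lay between -0.01 and 0.02. The differences were small and shared by nearly every gene.

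**Figure D2:**
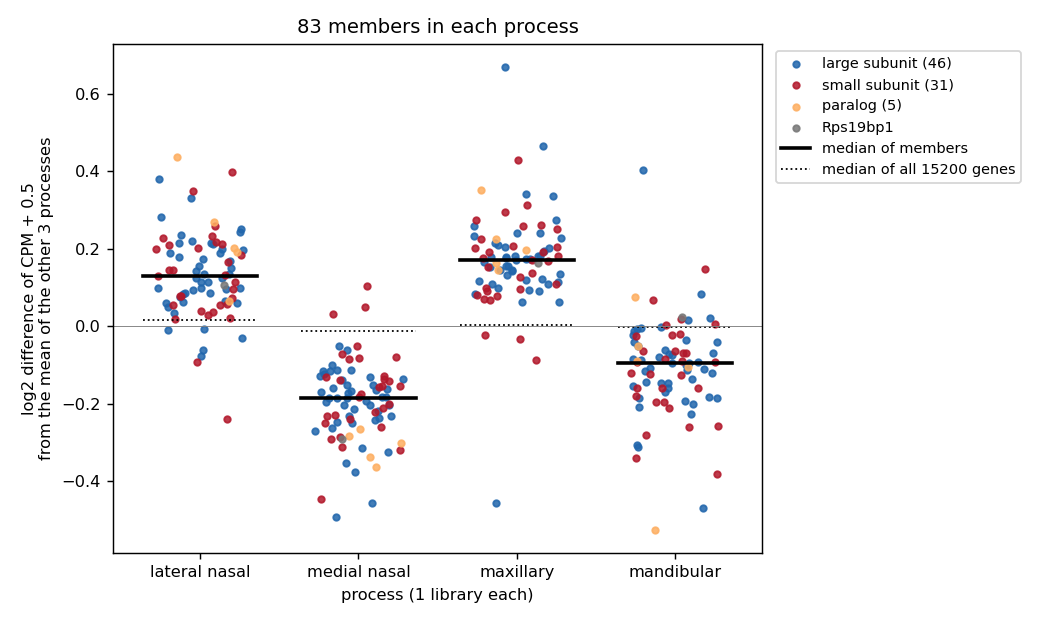
Log2 difference of CPM + 0.5 from the mean of the other 3 processes, 1 point for each of 83 genes in each process, with the median of these genes (solid line) and of all 15200 genes (dotted line). Most points sit above 0 in the lateral nasal and maxillary processes and below 0 in the medial nasal and mandibular processes, with medians of 0.13, 0.17, -0.19 and -0.10.

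The order of the 4 libraries was counted by which 2 of them were above the other 2. Both lateral libraries exceeded both midline libraries for 74 of 83 genes, a pattern found in 25.8% of all genes. The reverse pattern held for 1 gene, Rps21, beside 22.3% of all genes. Both nasal libraries exceeded both first arch libraries for Rps12 alone, beside 16.4% of all genes, and the opposite held for 5 genes, Rpl5, Rpl36, Rpl36al, Rplp2 and Rps27, beside 15.6%. The lateral nasal and mandibular libraries were the upper 2 for Rpl29 alone, beside 10.7%, and the medial nasal and maxillary libraries for Rps16 alone, beside 9.17%. The maxillary library was the highest for 54 genes, beside 25.4% of all genes, and the lateral nasal for 27, beside 23.5%. The medial nasal library was the highest for 0 genes, beside 24.6%, and the mandibular for 2, beside 26.6%. The medial nasal library was the lowest for 64, beside 30.1%.

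The summed counts of the 86 genes were 1.18-fold higher in the lateral than in the medial nasal process (interval 1.18 to 1.19). They were 1.17-fold higher in the maxillary than in the mandibular process (1.17 to 1.18). The lateral nasal level was 0.981 of the maxillary level (0.977 to 0.984), and the medial nasal level was 0.970 of the mandibular level (0.966 to 0.974). Across the pairs, the lateral nasal level was 1.15-fold that of the mandibular process (1.145 to 1.154), and the medial nasal level was 0.828 of the maxillary level (0.824 to 0.831), the widest distance of any 2 processes.

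The ratio of the summed lateral to the summed midline level had a median of 1.16 over the 83 genes and ran from 0.894 for Rpl29 to 1.55 for Rpl41. Its counting interval lay above 1 for 78 genes, beside 27.1% of all genes, below 1 for 1 gene, beside 25.8%, and held 1 for 4. These intervals narrow with the count, and the ribosomal protein genes have high counts. The lateral mean exceeded the midline mean for 81 genes on CPM, beside 51.8% of all genes, and for 81 genes on the deposited TPM. On TPM both lateral libraries were higher for 74 genes as well, of which 71 were shared with CPM: Rpl36, Rpl36al and Rplp2 joined on TPM, and Rpl21, Rpl23 and Rps20 left. The median log2 difference between the pairs was 0.21 on CPM + 0.5 and 0.21 on TPM.

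**Figure D3:**
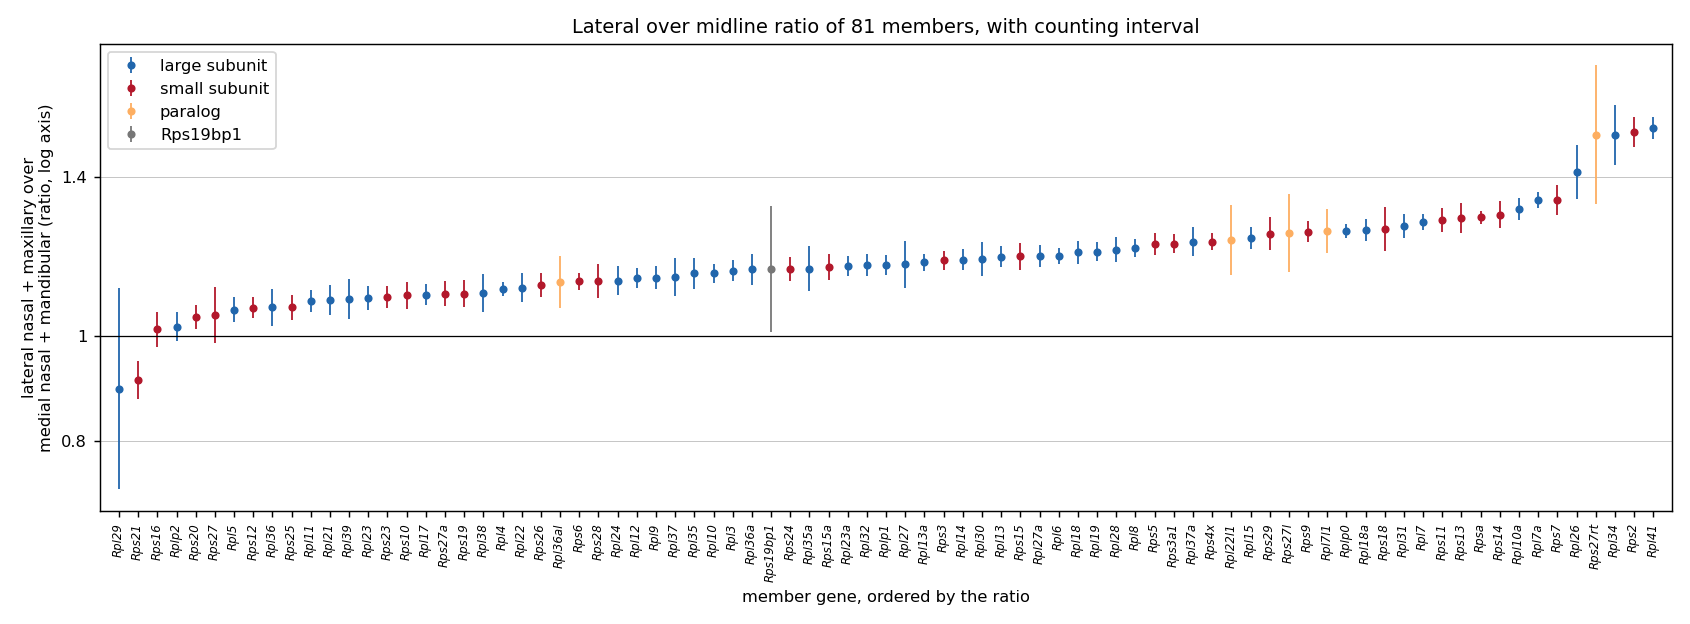
Ratio of the lateral nasal and maxillary level to the medial nasal and mandibular level of each of 81 genes (log axis) with its 95% counting interval, ordered by the ratio and coloured by subunit. The ratio runs from 0.894 for Rpl29 to 1.55 for Rpl41, and large and small subunit genes are spread over the whole order.

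Other measures moved with this split of the libraries. The lateral libraries were also the 2 with the most counts. Transcript length moved with it across the genome: among protein-coding genes outside the rule, the median log2 difference between lateral and midline libraries was 0.20 for 879 genes under 1000 bases, 0.13 for 3329 genes of 1000 to 2000 bases, 0.02 for 5887 genes of 2000 to 4000 bases and -0.10 for 3045 genes from 4000 bases. The core ribosomal protein genes are short, with a median transcript length of 683 bases against 2662 bases for the other protein-coding genes tested. Both lateral libraries exceeded both midline libraries in 56.4% of the other genes under 1000 bases, and in 81.3% of the 107 such genes that also reached 100 CPM, whose median difference was 0.27.

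When each library was instead centred on the median of the other protein-coding genes of the same length class, a setting chosen after the data had been seen, the split of the ribosomal protein genes was largely gone. The count with both lateral libraries higher fell from 74 to 33 of 83, beside 19.3% of all genes, and the count with both midline libraries higher rose to 21, beside 25.5%. The median difference between the pairs was then 0.02, with 50 genes above 0 and 33 at or below it. The class as a whole thus had a median close to that of other genes of its length. The 11 ribosomal protein genes from 1000 bases had a median difference of 0.24, with 10 of them higher in both lateral libraries, against a median of 0.21 and 64 of 72 for the shorter ones. The mean fragment length that RSEM used was 166.4 and 167.6 bases in the lateral and medial nasal libraries and 162.1 and 162.6 bases in the maxillary and mandibular libraries. It differed most between the nasal and the first arch libraries. It was also lower in the lateral nasal than in the medial nasal library, and lower in the maxillary than in the mandibular library. What links transcript length or fragment length to the lateral and midline split was not tested.

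Large and small subunit genes were alike in this. Of the 46 large subunit genes 42 were higher in both lateral libraries and 0 in both midline libraries, and of the 31 small subunit genes 27 and 1. Their median differences from the other processes were 0.12, -0.18, 0.17 and -0.10 for the large and 0.13, -0.16, 0.17 and -0.09 for the small subunit. The ratio of the summed large to the summed small subunit TPM was 1.36, 1.32, 1.38 and 1.34 in the 4 libraries. The 4 genes on the X chromosome, Rpl10, Rpl36a, Rpl39 and Rps4x, were all higher in both lateral libraries, with a median difference between the pairs of 0.20 against 0.21 for the autosomal genes.

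A 1.5-fold distance between the highest and the lowest library was reached by 6 of 83 genes, beside 28.7% of all genes, and a 2-fold distance by 0 of the 77 core genes. The 6 were Rpl34, Rps27rt, Rpl41, Rps2, Rpl29 and Rpl26. The median distance was 1.24-fold for the ribosomal protein genes and 1.30-fold for all genes.

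Rpl41 stood at 655, 441, 685 and 421 CPM. Its 2 lateral values were close to each other and well above the 2 midline values, and the ratio of the pairs was 1.55 (interval 1.52 to 1.59). Rps2, a small subunit protein at the entry site of the messenger RNA, stood at 338, 218, 343 and 225 CPM, a ratio of 1.54 (1.49 to 1.59). Rpl34, a large subunit protein, stood at 74.1, 53.3, 97.9 and 58.6 CPM, with the maxillary library highest. Rpl41, Rps2 and Rpl34 remained 0.44, 0.42 and 0.40 above the midline libraries on the log2 scale after centring by length class, the largest values of the 83 genes.

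Rpl26, which also binds the messenger RNA of p53, stood at 97.9, 64.8, 98.2 and 73.8 CPM. Rpl7a, a large subunit protein, stood at 962, 716, 1028 and 775 CPM, a ratio of the pairs of 1.33 (1.31 to 1.36). Rps7, a small subunit protein that can bind the p53 regulator Mdm2, stood at 320, 229, 296 and 233 CPM, also a ratio of 1.33 (1.29 to 1.38). In all 3 genes both lateral libraries were above both midline libraries.

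Among the 9 genes outside the lateral pattern on CPM, Rps21, a small subunit protein, stood at 153, 164, 154 and 174 CPM. It was the single gene with a ratio of the pairs whose interval lay below 1, at 0.910 (0.874 to 0.948). Rps16, at the decoding site, stood at 178, 213, 231 and 189 CPM, lowest in the lateral nasal library. Rplp2, the partner of Rplp1 in the stalk, stood at 279, 283, 308 and 293 CPM but at 660, 547, 686 and 561 TPM, so that it joined the lateral pattern on TPM. Its lateral-minus-midline log2 difference was 0.03 on CPM + 0.5 and 0.28 on TPM, below that of Rplp1 on the former scale (0.21) and above it on the latter (0.20). Rpl36, a large subunit protein, stood at 179, 171, 196 and 181 CPM. Rplp0, which anchors both stalk proteins, had a CPM ratio of the pairs of 1.249 (1.23 to 1.27).

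A fixed list of 13 genes known from human or mouse mutants, a selection of such genes, followed the class in direction. All 13 were higher in the lateral mean, beside 51.8% of all genes. In both lateral libraries 12 were higher, beside 25.8% of all genes, with Rpl5 as the exception. Their median difference between the pairs was 0.16, below the 0.21 of the 83 genes. Their median in the lateral nasal process was 0.06, against 0.13 for the 83 genes. Both medians hold for the genes listed, and whether they hold with other mutant genes added was not tested. Rps19, the gene most often mutated in Diamond-Blackfan anaemia, stood at 353, 326, 358 and 324 CPM. Rpl5 stood at 381, 356, 431 and 411 CPM and its partner Rpl11, with which it binds Mdm2, at 516, 485, 561 and 515 CPM, so that for Rpl11 the mandibular level was within 1 CPM of the lateral nasal level. Rpl38, mutated in the Tail short mouse, stood at 175, 164, 179 and 160 CPM, and Rpl24, mutated in the Belly spot and tail mouse, at 301, 262, 322 and 292 CPM. Rpsa, whose loss leaves people without a spleen, stood at 1450, 1177, 1424 and 1061 CPM, a ratio of 1.28 (1.27 to 1.30). Rps24, Rps10, Rps26, Rps7, Rpl26 and Rpl35a, also of this list, had ratios from 1.09 for Rps10 to 1.41 for Rpl26.

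The 5 detected paralogs were all higher in the lateral mean, and on CPM 4 of them were higher in both lateral libraries. Rpl36al, an autosomal retrogene copy of the X-linked Rpl36a, was the exception at 94.5, 78.0, 99.5 and 95.02 CPM. On the TPM scale it reached 31.2, 30.2, 32.4 and 35.3% of its parent. The interval of the mandibular value (33.0 to 37.6) lay above that of the medial nasal value (28.1 to 32.4) and met the other 2. Rpl22l1, which opposes its parent Rpl22 in splicing and in hematopoietic development, reached 19.8, 17.4, 19.6 and 17.9% of Rpl22. Its intervals, from 15.9 to 21.3%, overlapped among all 4 processes.

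Rps27l, a p53 target, reached 16.4% of Rps27 in the lateral nasal (15.0 to 17.99), 12.8% in the medial nasal (11.4 to 14.3), 15.5% in the maxillary (14.03 to 17.0) and 13.97% in the mandibular process (12.6 to 15.5). The interval of the lateral nasal value lay above that of the medial nasal value. Rpl7l1, a ribosome assembly factor, stayed between 3.79 and 4.18% of Rpl7, with overlapping intervals in all 4 libraries. Rps27rt, an intronless copy of Rps27, reached 9.71% (8.47 to 11.1), 7.25% (6.05 to 8.57), 9.21% (7.99 to 10.6) and 5.76% (4.75 to 6.87) of Rps27, so that the mandibular interval lay below both lateral intervals. Its coding sequence and that of Rps27 differ at 0 of 255 bases, so their counts could not be divided by the coding sequence. Rps27 itself stood at 76.1, 69.5, 78.1 and 78.0 CPM.

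Copies of this kind bear on the level of many members. Genes that share at least 50 different 50-base stretches with a ribosomal protein gene, making up at least 20% of the copy, were counted as copies: there were 342 of them, for 70 of the 86 genes. They held 12.6% of the summed counts of members and copies. For 12 genes at least 25% of the summed counts stood with copies, namely 96.3% for Rpl29, 79.7% for Rpl26, 71.9% for Rps2, 69.0% for Rpl34, 66.2% for Rpl27, 63.8% for Rps18, 57.1% for Rpl5, 54.9% for Rps7, 50.9% for Rpl35, 49.0% for Rpl3, 46.9% for Rpl35a and 45.2% for Rpl21. Whether a copy is transcribed or has been given reads of its parent could not be told apart from these counts.

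Coding sequences show how little there is to divide such reads by within the coding part. Over all annotated transcripts pooled, Rpl27, Rpl34 and Rpl29 held 1538, 2802 and 1289 different 50-base stretches. Of these, 362, 218 and 453 (23.5, 7.8 and 35.1%) were shared with other genes. The transcript lengths of the 3 genes in these libraries were 634, 493 and 733 bases on average. The pool holds more stretches than transcripts of that length can. These percentages therefore do not give the part of the expressed sequence that was shared, which was not measured. The stretches below are 60 bases of the coding strand, 5′ to 3′, from GRCm38, with a base that differs between gene and copy in capitals. Rpl27 on chromosome 11 (chr11:101442298-101445529, plus strand) and Gm11518 on the same chromosome (chr11:94037218-94037628, minus strand) differ at 0 of 411 coding bases. Rpl34 (chr3:130726831-130730398, minus strand) and Rpl34-ps1 (chr6:71124610-71124963, plus strand) differ at 2 of 354, and Rpl29 (chr9:106429454-106431568, plus strand) and Gm8210 (chr1:43189156-43189638, plus strand) at 3 of 483. The stretches begin at coding base 1 for Rpl27, 102 for Rpl34 and 42 for Rpl29.
Rpl27: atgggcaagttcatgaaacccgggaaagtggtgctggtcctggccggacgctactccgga
Gm11518: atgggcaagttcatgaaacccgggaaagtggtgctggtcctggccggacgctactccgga
Rpl34: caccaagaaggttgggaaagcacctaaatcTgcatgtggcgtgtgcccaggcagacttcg
Rpl34-ps1: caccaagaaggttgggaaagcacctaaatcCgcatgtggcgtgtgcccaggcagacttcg
Rpl29: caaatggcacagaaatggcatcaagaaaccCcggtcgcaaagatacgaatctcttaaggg
Gm8210: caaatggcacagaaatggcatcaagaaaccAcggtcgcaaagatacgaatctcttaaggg

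Rpl29 was counted 111, 73, 70 and 101 times, while its copies Gm8210 and Gm13841 were each given 1286, 999, 1270 and 1013 counts. The 2 copies were thus given the same number in every library. With all copies added, Rpl29 stood at 167, 156, 174 and 161 CPM, and both lateral libraries were above both midline libraries. Of the 13 copies of Rpl35a, 5 were likewise given 359, 257, 344 and 297 counts each.

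Adding the copies to their members left 74 of 83 genes with both lateral libraries higher, as before, but exchanged some of them: Rpl29 and Rpl5 joined, and Rpl11 and Rps28 left. The count of genes with a 1.5-fold distance fell from 6 to 3. Rpl34 with its copies stood at 231, 188, 302 and 197 CPM, Rps2 at 1161, 846, 1178 and 826 CPM, and Rpl26 at 441, 376, 452 and 394 CPM, a distance of 1.20-fold in place of 1.51-fold. Rps7 fell from 1.39-fold to 1.17-fold. The large ratios of Rpl26 and Rps7 thus belonged to the part of the reads assigned to the member, whereas Rps2 and Rpl34 kept a log2 difference between the pairs of 0.48 and 0.46 with copies.

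**Figure D4:**
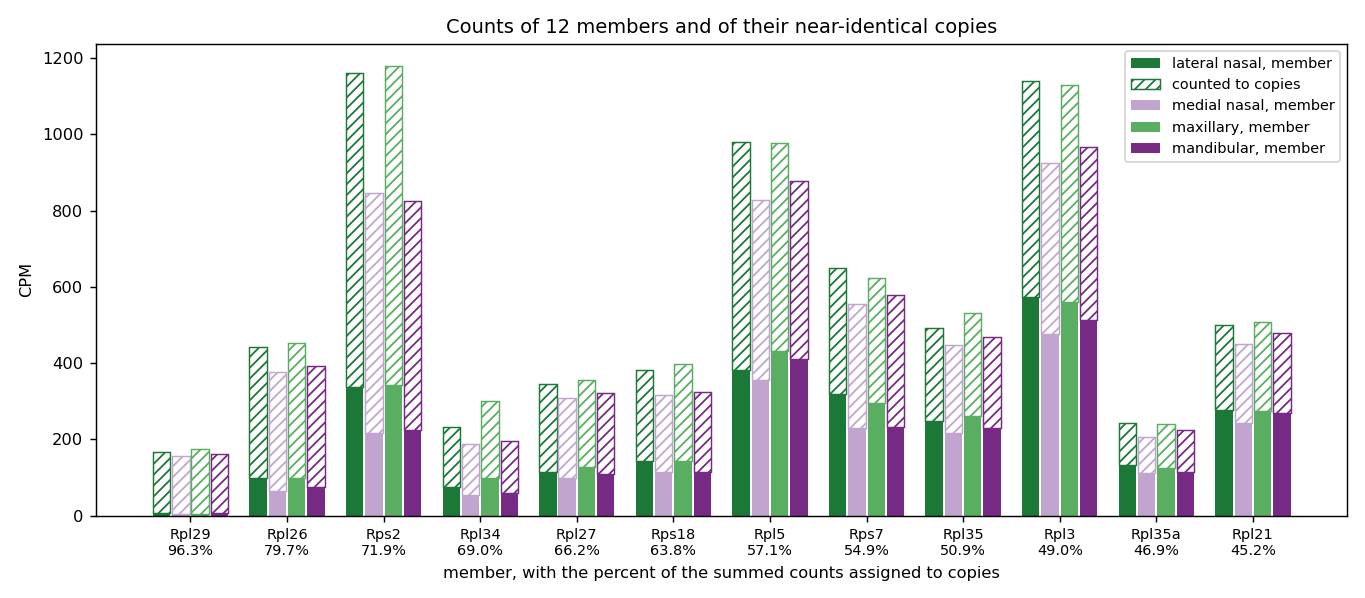
CPM of the 12 genes with at least 25% of their summed counts in copies, with the part assigned to the gene (filled) and to its copies (hatched) in each of the 4 libraries. For Rpl29 nearly the whole bar is hatched (96.3%), and the summed bars differ less among processes than the filled parts for Rpl26 and Rps7.

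The genes share features outside their names. Of the 86, 30 (34.9%) hold an annotated snoRNA gene on their own strand, against 1.14% of the other 21865 protein-coding genes; snoRNAs guide the modification of ribosomal RNA and are cut from introns. Rpl4 holds 5 and Rpl13a holds 4. The 30 hosts had a median lateral-minus-midline difference of 0.21 and the 53 detected genes without a snoRNA gene one of 0.22.

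A RefSeq promoter window on GRCm38.p6, from 250 bases before to 50 after the start, was matched by symbol for 66 of the 86 genes. The letters CTTTCC, part of the pyrimidine run, were found on the sense strand from 30 bases before the start to the window's end in 18 of 66 (27.3%), against 3.70% of all 27025 promoters. CCGGAAG, the core that ETS factors bind, was found on either strand of the window in 25 (37.9%), against 9.12%. GGGCGG, the Sp1 box, was found on either strand in 40 (60.6%) against 35.9%, and ATGGCGG, the core bound by YY1, in 10 (15.2%) against 4.19%. TATAAA was found on either strand in 6 (9.09%) against 14.2%. On the sense strand alone it was found in 6 (9.09%) against 8.88%. On that strand from 30 bases before the start it was found in 5 (7.58%) against 2.50%. GGCGG is shared by the Sp1 and YY1 letters. Such matches describe the sequence and are not measured binding.

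The 60 bases from 40 before to 20 after the start are shown for 4 genes, 5′ to 3′ on the gene's strand, with CTTTCC and CCGGAAG in capitals: Rpl28 (chr7:4792925-4792984, plus strand) and Rpl38 (chr11:114668540-114668599, plus strand) as genes that hold the pyrimidine letters, Rps21 (chr2:180257339-180257398, plus strand) as the gene that ran against the class, and Rpl41 (chr10:128549149-128549208, minus strand) as the one with the largest ratio.
Rpl28: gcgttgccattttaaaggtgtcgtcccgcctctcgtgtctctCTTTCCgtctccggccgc
Rpl38: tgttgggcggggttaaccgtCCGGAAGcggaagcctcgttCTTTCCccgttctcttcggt
Rps21: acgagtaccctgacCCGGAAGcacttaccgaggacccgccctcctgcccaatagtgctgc
Rpl41: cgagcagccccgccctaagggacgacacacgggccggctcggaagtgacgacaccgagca

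The 17 detected genes with CTTTCC in this position had a median lateral-minus-midline difference of 0.20 and the 46 other genes with a promoter entry one of 0.23. For CCGGAAG the medians were 0.24 over 24 genes and 0.21 over 39.

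Most related gene groups moved in the same direction to differing degrees. Both lateral libraries were higher in 25.8% of all genes. Among protein-coding genes outside the rule the share was 56.4% under 1000 bases and 42.3% from 1000 to 2000 bases. The share fell to 24.3% from 2000 to 4000 bases and to 9.46% from 4000 bases. Whether the groups below differ from other genes of their length was not tested. Among 20 translation genes outside the rule, many with the same pyrimidine start, 12 were higher in both lateral libraries and 2 in both midline libraries, with a median difference of 0.15. Fau, which encodes a small subunit protein fused to a ubiquitin-like one, stood at 349, 268, 343 and 279 CPM. Rack1, a scaffold on the small subunit, stood at 1081, 842, 1098 and 846 CPM. Eef1a1, the elongation factor, stood at 9476, 7554, 9243 and 7437 CPM. Pabpc1, the poly(A)-binding protein, ran the other way at 441, 577, 420 and 601 CPM.

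The genes that make ribosomes had smaller median differences between the pairs. Of 35 ribosome assembly factors 18 were higher in both lateral libraries and 0 in both midline libraries, with a median difference of 0.13. Fbl, the methyltransferase of ribosomal RNA, stood at 91.1, 75.6, 96.7 and 88.6 CPM, whereas Ncl, nucleolin, was highest in the mandibular library at 763, 695, 772 and 879 CPM. Of 15 RNA polymerase I genes 8 were higher in both lateral libraries and 1 in both midline libraries, with a median of 0.09. Tcof1, mutated in Treacher Collins syndrome, stood at 68.7, 72.5, 83.7 and 86.0 CPM and so was higher in both first arch libraries, and Polr1c at 56.6, 42.1, 55.1 and 45.4 CPM. The 7 noncoding snoRNA hosts found had a median of -0.0032, with 0 of them higher in either pair. For Gas5, a host with a pyrimidine start, the levels were 235, 210, 236 and 249 CPM. The 11 p53 targets had a median of 0.03, with 2 higher in both lateral and 2 in both midline libraries.

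Of 77 genes of mitochondrial ribosomal proteins, which belong to another ribosome, 53 were higher in both lateral libraries and 2 in both midline libraries, with a median of 0.18. For 61 replication histone genes, whose transcripts are short and lack a poly(A) tail, the median was 0.28. Of these, 45 were higher in both lateral and 2 in both midline libraries. The 12 cell cycle genes had a median of 0.21, with 8 higher in both lateral and 0 in both midline libraries. The 15 detected transcripts of the mitochondrial genome had one of -0.26, with 2 higher in both lateral and 7 in both midline libraries.

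**Figure D5:**
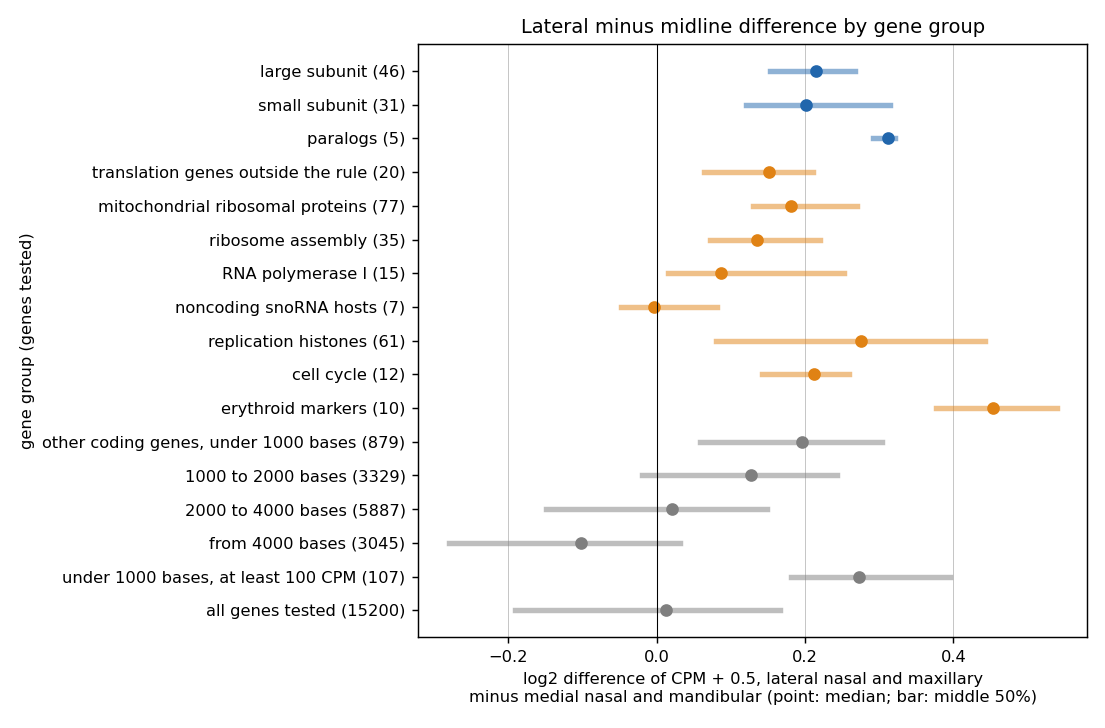
Lateral minus midline log2 difference of CPM + 0.5 by gene group, with the median (point) and the middle 50% of the genes (bar). The medians of the large (0.21) and small subunit genes (0.20) lie next to that of other coding genes under 1000 bases (0.20), and the medians of other coding genes fall to -0.10 from 4000 bases.

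Among the cell type markers, only the erythroid genes followed the split in every gene. All 10 erythroid genes found were higher in both lateral libraries, with a median of 0.45. This pattern was found in 25.8% of all genes. Among protein-coding genes outside the rule under 1000 bases and of at least 100 CPM it was found in 81.3%, with a median of 0.27. The summed level of the erythroid genes was 4992, 3187, 4699 and 3526 CPM. In such mixed samples, fewer cells of a type and less RNA per cell cannot be told apart. The 6 markers of facial mesenchyme had a larger median of 0.56, with 5 higher in the lateral mean and 3 in both lateral libraries, and summed to 1535, 1219, 2005 and 1900 CPM. The 8 epithelial markers had a median of 0.29, with 7 higher in the lateral mean and 1 in both lateral libraries, and summed to 365, 325, 291 and 214 CPM. The 5 endothelial markers had a median of -0.11, and 2 of the 6 detected leukocyte markers were higher in both lateral libraries. Neural markers summed to 196, 355, 136 and 63.6 CPM and muscle markers to 34.1, 16.6, 258 and 758 CPM. The erythroid sum had both lateral libraries above both midline libraries, and the mesenchymal, epithelial, neural and muscle sums did not. The part of any of these cell types in the levels of the ribosomal protein genes was not tested.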

How the data were processed

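RNA from 4 facial processes was analysed, 1 library each. The authors made stranded total RNA libraries after ribosomal RNA removal, sequenced 50-base single-end reads, aligned them to mm10 with STAR and quantified them with RSEM 1.4.1 on GENCODE annotation. The deposited values used here are RSEM's expected counts, without normalization, in which a read matching more than 1 gene is split between them. The deposited TPM corrects for length and library size, and the posterior mean count is a second deposited count estimate.

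Expected counts of 43346 gene entries were rounded. Gene IDs were given symbols and coordinates from GENCODE M21 (GRCm38, which is mm10). Factors were the trimmed mean of M values (TMM) in edgeR 4.0.16, computed where 1 library or more held 10 counts. CPM + 0.5 was used on the log2 scale, for 15200 genes with a mean of at least 1 CPM. Intervals of ratios and of shares (Clopper-Pearson) are 95% intervals for counting error. With 1 library per process no difference was tested.

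Genes were named by rule: the 6 highest and 6 lowest by mean TPM, paralogs, the 8 widest ratios between libraries, genes against the leading pairing, mutant genes, X-linked genes and up to 4 genes of each other list. Fau and other ribosomal components were named among these lists. Rpl28 and other genes shown by sequence were chosen after their values were seen. The members and lists were chosen with earlier results of these data known. Alternatives were DESeq2 1.42.0 size factors, library totals, other gene sets for TMM, TPM, other pseudocounts, minimum levels and thresholds, the posterior mean count, subsets of the members and added pseudogene counts. Adding copies and centring by length class were chosen after the data had been seen. The calculation was tested on simulated counts. The values of some genes are not reported here.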

Additional observations from a re-analysis of the deposited data

How the results depend on the processing

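No paired analysis was possible because each process has 1 library, and no library could be left out of a process. Values follow the order lateral nasal, medial nasal, maxillary, mandibular. Median differences of the ribosomal protein genes kept their direction in every setting run. With library totals they were 0.139, -0.141, 0.146 and -0.125, with TMM over protein-coding genes 0.0961, -0.149, 0.154 and -0.0816, and with TMM over genes of at least 50 CPM 0.109, -0.113, 0.129 and -0.107. With TPM the lateral nasal and maxillary medians were 0.180 and 0.114, with DESeq2 size factors the maxillary median was 0.182, and with the posterior mean count the mandibular median was -0.115. Centring by length class gave 0.0183, -0.0246, 0.0228 and -0.00985, with 47 genes above the other processes in the lateral nasal library. For the medial nasal library this count was 33, and for the mandibular library 36. It also gave 33 genes higher in both lateral libraries, beside 19.3% of all genes, and 21 in both midline libraries, beside 25.5%. By the other pairings it gave 5 in both nasal, 11 in both first arch, 6 in the lateral nasal and mandibular and 7 in the medial nasal and maxillary libraries. It left 2 genes 1.5-fold apart. Shares of all genes are not given beside the other counts of this setting.

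Genes above the others in the mandibular library were 5 with library totals and 6 with the posterior mean count, and in the medial nasal library 7 with TMM over genes of at least 50 CPM. Genes higher in both first arch libraries were 2 with library totals, 9 with protein-coding TMM and 1 with TPM. Genes higher in both nasal libraries, and in the medial nasal and maxillary libraries, were 2 each with library totals and with TMM over genes of at least 50 CPM. Genes higher in the lateral nasal and mandibular libraries were 2 with protein-coding TMM, 5 with TPM, 2 with pseudogene counts added and 0 with copies added. The large minus small subunit median, near 0 throughout, turned from -0.00558 to 0.00406 in the mandibular library with TPM and from 0.000646 to -0.00397 in the maxillary library with pseudogene counts added. In the main setting 6 ribosomal protein genes were 1.5-fold apart, beside 28.7% of all genes. Of the ribosomal protein genes, 3 were 1.5-fold apart with copies added, 0 were 2-fold apart, and 35 had a highest library at least 25% above the lowest. Outside the main setting, shares of all genes are not given beside any count of this paragraph. Those counts therefore do not show whether the class differs from other genes, or whether other genes changed with the setting too. The count higher in both lateral libraries stayed between 69 and 75 in every setting but the centring by length class. The cause of these changes was not tested. Leaving out genes whose 2 deposited count estimates lay 10% or more apart removed 0 ribosomal protein genes and so changed no value. This does not cover the division of reads between a gene and its copies.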
